A study of Lepidium sativum with 107 samples.

Results

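The 26S proteasome is the protease that degrades ubiquitin-tagged proteins, and its subunit genes were followed through seed germination of garden cress (Lepidium sativum). The members were chosen by code: a list of 50 Arabidopsis loci that encode subunits was set against the 13895 probe sets of the deposited expression table, which is keyed by Arabidopsis locus. The table held 40 of the 50, namely 10 genes of the core alpha class, 9 of the core beta class, 7 of the RPT ATPases, 3 of the base RPN subunits, 10 of the lid RPN subunits and RPN10. The loci of PAA1, PAA2, PBE1, PBE2, RPT1a, RPT6a, RPT6b, RPN1b, RPN8b and RPN9b had no row and were not analysed here, so the chymotrypsin-like catalytic subunit PBE has no value.

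In plants as in other eukaryotes, a barrel of stacked alpha and beta rings forms the core particle, and 3 kinds of beta subunit (PBA, PBB and PBE) carry its peptide-cutting sites. A regulatory particle caps the barrel. In its base the RPT ATPases unfold substrates and feed them through the alpha ring, with RPN1 and RPN2 as scaffolds, while in its lid RPN11 removes the ubiquitin chain. RPN10, which sits between base and lid, binds the chain. In Arabidopsis the proteasome degrades repressors of gibberellin signalling and regulators of abscisic acid signalling, both hormone pathways that govern germination. Most subunits are encoded by a pair of paralogous genes in Arabidopsis, the species from which all roles given here are known.

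The study took 107 arrays from cress seeds of the line FR14, dissected except for whole dry seed. Apart from the dry samples, the seeds were sown on water at 24 °C in continuous light, with no other treatment. The micropylar endosperm, the cap that covers the radicle tip, was sampled at 1, 3, 5 and 7 h with the testa (seed coat) intact, at 7 h with the testa ruptured, at 10, 13 and 16 h with the endosperm intact, and at 16 h with the endosperm ruptured. The radicle, which the labels describe as including the lower hypocotyl, was sampled at the same 9 stages. The non-micropylar endosperm, which lines the rest of the seed, and the cotyledons were sampled at 3, 7 (intact testa) and 13 h. Dry seed was taken as radicle with its endosperm cap, as cotyledons with non-micropylar endosperm, and whole. Each sample from sown seed pooled 100 organs, or 50 cotyledons, while the pool size of the dry samples is not given. From every sample 100 ng of RNA was labelled. There were 4 arrays in each of 26 groups and 3 in the dry cotyledon end. Whether the replicates were separate batches of seed is not stated, so part of the scatter within groups may be technical. In the main test a p-value rests on that scatter pooled over all 27 groups, not on that of the groups compared alone.

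Values are log2 expression per array. The authors' normalization (RMA) matches arrays by quantiles before probes are summarised, so every change is relative to the bulk of transcripts. The deposited arrays do not share exactly 1 distribution, with array medians of 4.04 to 4.17. In pooled tissue fewer cells of a type and less RNA per cell cannot be told apart. The array files its probes under Arabidopsis codes, and each value is that of the cress transcripts that bound them. The genes of a pair can share probes' targets, so their values may not be fully separate, and levels are not compared between probe sets. Changes were tested with limma over all 13895 probe sets and called at a Benjamini-Hochberg adjusted p under 0.05. Signals were dim below 3.59, the 25th percentile of all group means, and RPN5b lay at or near that level, with group means of 3.20 to 3.80.

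The tissue labels were set against marker genes known from Arabidopsis. All 3 measured endosperm markers were higher in micropylar endosperm than in radicle, and all 3 were higher in non-micropylar endosperm than in cotyledons, with median log2 differences of 2.26 and 2.85. Of 6 root markers, 5 were lower in micropylar endosperm than in radicle, and of 6 shoot markers, 4 were lower in non-micropylar endosperm than in cotyledons. The 3 seed coat markers averaged 4.08 to 4.34 on the 7 h micropylar arrays with intact testa, against 4.31 to 4.66 in radicle, with TT10 at or near the dim level in both. An array stood apart. Replicate 2 of the 13 h cotyledons had a mean correlation of 0.913 with the other arrays of its group, the lowest value of all arrays. In that group it was set apart on the low side for RPN2b, RPN1a and RPN3a, and on the high side for PBG1 and PAD1, among others. For that reason results that rest on it are given with and without it.

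On average, the subunits were lowest in non-micropylar endosperm at 3 h and highest in the same tissue at 13 h. The mean over the 40 subunits was 6.38 ± 0.04, 7.11 ± 0.04 and 7.24 ± 0.12 in that tissue at 3, 7 and 13 h (SD, n = 4 each), and the 4 arrays at 3 h did not overlap with the others. In micropylar endosperm it was 6.67 ± 0.05, 6.51 ± 0.05, 6.76 ± 0.06 and 7.04 ± 0.02 at 1, 3, 5 and 7 h with the testa intact, a dip followed by a peak. After testa rupture the micropylar mean lay between 6.71 and 6.83 at all later stages. The radicle varied less, between 6.56 at 3 h and 6.93 at 13 h, and the cotyledons had 6.57 ± 0.08, 6.69 ± 0.15 and 6.99 ± 0.06 at 3, 7 and 13 h (SD, n = 4 each). Dry seed parts had means of 6.66 (radicle end), 6.66 (cotyledon end) and 6.63 (whole seed).

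**Figure D1:**
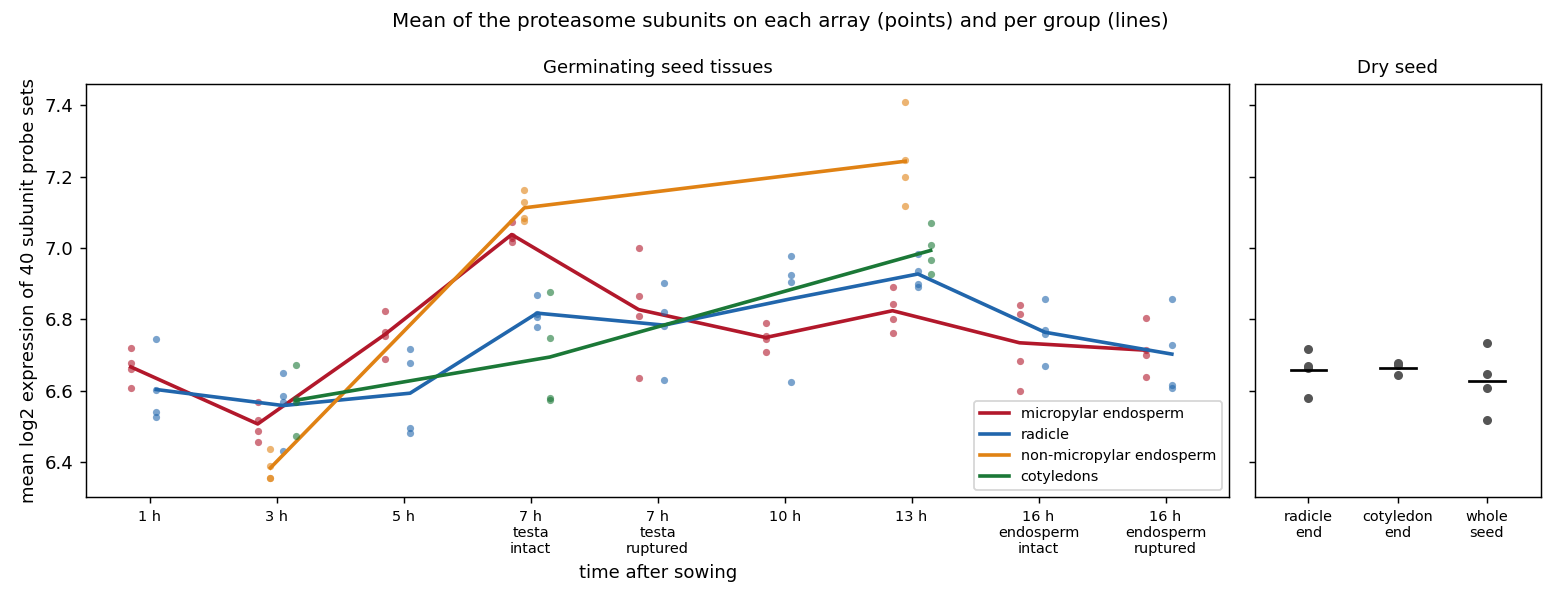
Mean log2 expression of the 40 measured subunits on each array (points) by time after sowing, with lines through the group means of the 4 tissues and, at right, the dry seed parts. The non-micropylar endosperm has a mean of 7.24 at 13 h, against 6.38 at 3 h, and the micropylar endosperm peaks at 7.04 at 7 h with the testa intact.

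The time of the highest level differed between the tissues. In micropylar endosperm, 22 of the 40 subunits had their highest group mean at 7 h with intact testa and 21 had their lowest at 3 h. In radicle, 17 had their highest at 13 h and 14 had their lowest at 1 h. Over all 27 groups, 12 subunits were highest in the 13 h and 8 in the 7 h non-micropylar endosperm, and 11 were lowest in the same tissue at 3 h. The span between a subunit's lowest and highest group mean ran from 0.50 log2 units for RPN10 (AT4G38630) to 2.31 for PAE2 (AT3G14290).

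**Figure D2:**
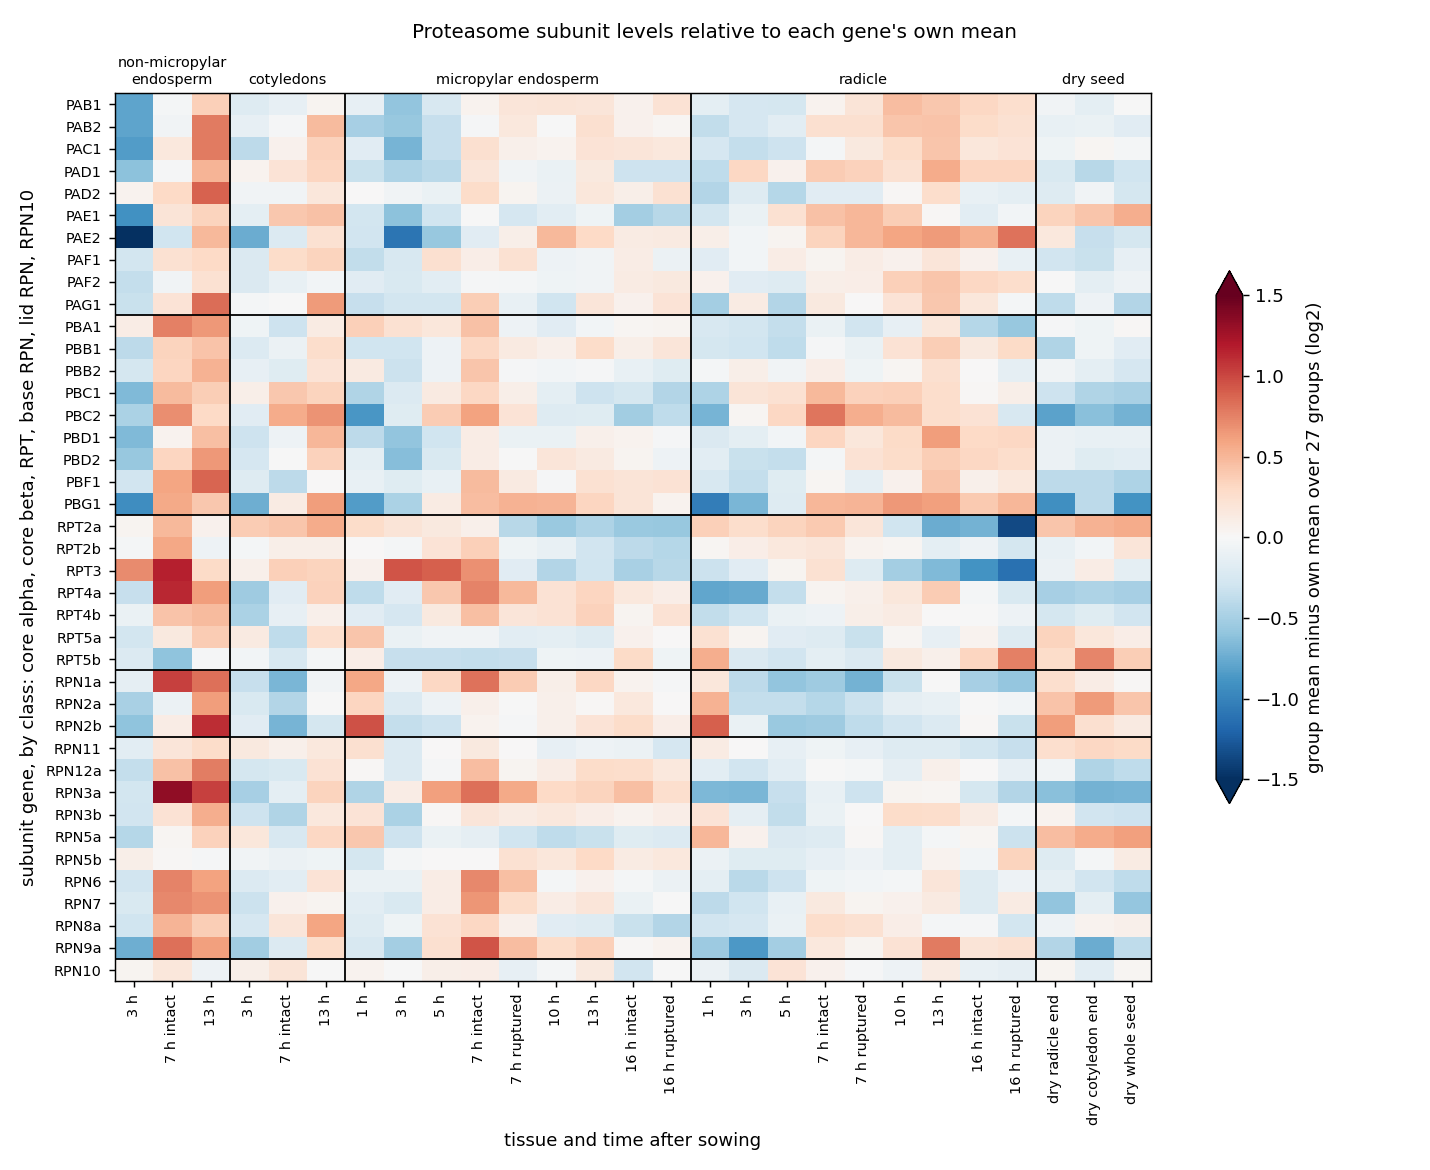
Group mean of each subunit (rows, by class) minus its own mean over the 27 groups (columns, by tissue and time), in log2 units. Most rows are low in the 3 h and high in the 7 h and 13 h non-micropylar endosperm, while RPT2a and RPT3 are low in the late radicle.

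The non-micropylar endosperm had the most subunits called. Between 3 h and 7 h, 35 of the 40 subunits rose and 0 fell, with a median log2 change of 0.72, against 16.0% of all probe sets called higher and 15.9% called lower and a median of -0.05 over the 13895 probe sets. By class, 8 of 10 core alpha genes, all 9 core beta genes, 6 of 7 RPT genes, all 3 base RPN genes and 9 of 10 lid genes rose. The members not past the threshold were PAD2, PAF2, RPT5b, RPN5b and RPN10, with changes between -0.40 and 0.30. In the same interval none of the 6 root and none of the 6 shoot markers passed the test. The shoot markers averaged 3.60 to 3.72 per array at 7 h and 3.50 to 3.78 at 3 h, and 4 of the 6 were below the dim level at both times. Of the 3 endosperm markers 2 rose and 1 fell, and of the 3 seed coat markers 1 rose and 1 fell.

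The lid scaffold RPN3a (AT1G20200) had 7.86, 8.05, 8.04 and 7.71 on the 7 h arrays of non-micropylar endosperm, against 6.12, 6.39, 6.51 and 6.23 at 3 h. Its log2 change was 1.60 ± 0.19 (SE, adjusted p = 3.56e-11), a 3.04-fold rise. All 4 later arrays lay more than 1 log2 unit above the earlier ones. The lid subunit RPN9a (AT5G45620) had 8.58, 8.26, 8.18 and 8.15 at 7 h, against 6.67, 6.78, 6.78 and 6.70 at 3 h, with a change of 1.56 ± 0.22 (SE, adjusted p = 1.47e-08). The ATPase RPT4a (AT5G43010) had 9.88, 9.72, 10.02 and 9.80 at 7 h, against 8.04, 8.55, 8.54 and 8.35 at 3 h, with a change of 1.48 ± 0.17 (SE, adjusted p = 6.33e-12). In both genes the groups did not overlap. The core beta gene PBG1 (AT1G56450) rose by 1.50 ± 0.19 (SE, adjusted p = 5.34e-10).

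From 7 h to 13 h subunits were called in both directions. In that interval 12 subunits rose and 3 fell, against 10.3% of all probe sets called higher and 11.9% called lower. The rises held 7 of 10 core alpha genes but 1 of 9 core beta genes and 1 of 10 lid genes, and the 3 falls were all RPT ATPases. RPT3 (AT5G58290) had 9.20, 9.15, 9.60 and 9.20 at 13 h, against 10.11, 10.22, 10.12 and 10.20 at 7 h, a change of -0.88 ± 0.14 (SE, adjusted p = 2.68e-07), and every 13 h array lay below every 7 h array. RPT2b fell by 0.65 and RPT4a by 0.50 on the log2 scale, with adjusted p = 1.82e-05 and 0.0201. The RPT4a call was lost without non-micropylar endosperm 13 h replicates 3 or 4 or non-micropylar endosperm 7 h intact replicate 3, with adjusted p up to 0.0718.

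Over the whole span from 3 h to 13 h, 34 subunits rose and 1 fell, against 19.4% of all probe sets called higher and 19.9% called lower, and the median change was 0.90. All 10 core alpha, all 9 core beta and all 3 base RPN genes rose, as did 9 of 10 lid genes, while 3 of 7 RPT genes rose and RPT3 fell by 0.42 (adjusted p = 0.00992). The core alpha gene PAE2 (AT3G14290) had 8.18, 7.92, 8.53 and 8.27 at 13 h, against 6.24, 6.31, 6.31 and 6.09 at 3 h. Its change of 1.99 ± 0.15 (SE, adjusted p = 1.49e-20), or 3.96-fold, was larger than that of any other subunit, and the groups lay more than 1 log2 unit apart. The base scaffold RPN2b (AT1G04810) had 7.56, 7.53, 7.77 and 7.52 at 13 h, against 6.00, 5.99, 5.49 and 6.03 at 3 h, with a change of 1.72 ± 0.22 (SE, adjusted p = 2.56e-10). The core alpha genes PAC1 and PAB2 rose by 1.61 and 1.57. By 13 h, 2 of 6 shoot markers had also risen in this tissue. Their mean level was 3.86 to 4.26 at 13 h, against 3.50 to 3.78 at 3 h, while the cotyledons had 4.72 to 4.84 at 13 h. Their part in the 13 h values was not tested.

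The rise in non-micropylar endosperm was set against that in the cotyledons and in the micropylar endosperm over the same hours. From 3 h to 13 h, 19 subunits rose in cotyledons and 0 fell, with a median of 0.35, against 12.9% of all probe sets called higher and 12.5% called lower. In micropylar endosperm 18 rose and 2 fell, against 19.5% of all probe sets called higher and 20.8% called lower, and the falls were RPT3 (-1.24 ± 0.14) and RPT2a (-0.66 ± 0.17, log2 change ± SE). After a further quantile normalization 16 rose and 5 fell in micropylar endosperm. The difference in change between non-micropylar endosperm and cotyledons passed the test for 14 subunits in the direction of a larger rise in non-micropylar endosperm and for 1 in the other, against 6.93% of all probe sets called higher and 8.65% called lower. It was 1.82 ± 0.31 (SE, adjusted p = 5.34e-06) for RPN2b, and 1.38 (adjusted p = 1.19e-04) without the 13 h cotyledon replicate 2 that stood apart. The difference was 1.01 for PAE2, 0.97 for PAB2, 0.96 for PBF1 and -0.67 for RPT3. Against the micropylar endosperm, 15 subunits had a higher and 0 a lower change in non-micropylar endosperm, against 3.71% of all probe sets called higher and 4.69% called lower, with the largest differences in RPN2b (1.14), PBC1 (1.13), RPN3a (1.07) and RPN2a (0.89). Both sets of differences use the same 3 h and 13 h non-micropylar arrays.

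In cotyledons the median rise was smaller, at 0.35, against 0.90 in non-micropylar endosperm, but not for every gene. The change of PBG1 differed by -0.02 and that of RPN8a by -0.18 between the tissues (non-micropylar endosperm minus cotyledons), neither past the threshold. PBG1 (AT1G56450) had 6.08, 7.20, 5.89 and 6.00 at 13 h, against 4.82, 4.96, 4.98 and 4.96 at 3 h, a change of 1.36 ± 0.19 (SE, adjusted p = 1.5e-08), or 1.06 without the high replicate 2. PAE2 had 7.69, 8.29, 7.90 and 7.95 at 13 h, against 6.63, 7.00, 7.11 and 7.19 at 3 h, with a change of 0.97 ± 0.15 (SE, adjusted p = 1.62e-07). In both genes the groups did not overlap. The lid subunit RPN8a (AT5G05780), the partner of RPN11, rose by 0.85 and the core beta gene PBD1 (AT3G22630) by 0.82. By step, 6 subunits rose and 2 fell (RPT5a and RPN5a) from 3 h to 7 h, against 6.61% of all probe sets called higher and 6.97% called lower, and 14 rose and 0 fell from 7 h to 13 h, against 9.02% of all probe sets called higher and 8.18% called lower. The later count was 8 without cotyledon 7 h intact replicate 1. When only the arrays compared were fitted, the counts called were 9 for 3 h to 13 h, 2 for 3 h to 7 h and 1 for 7 h to 13 h.

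**Figure D3:**
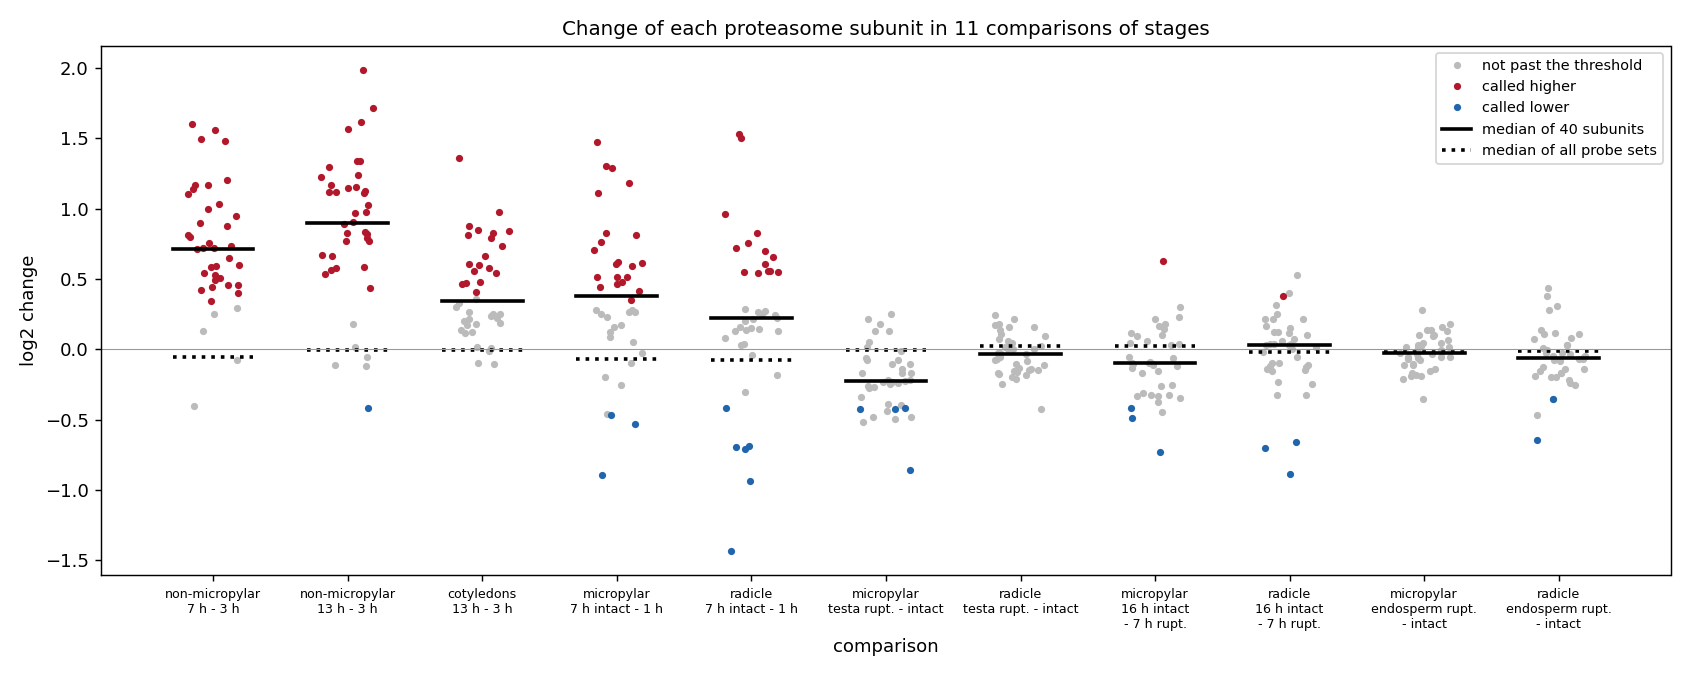
Log2 change of each of the 40 subunits (points) in 11 comparisons of stages, the later or ruptured stage minus the earlier or intact one, coloured by the call at an adjusted p under 0.05, with the median of the subunits (solid) and of all probe sets (dotted). In non-micropylar endosperm the subunit medians are 0.72 and 0.90, in micropylar endosperm and radicle before testa rupture 0.38 and 0.22, and in the rupture comparisons few points are coloured.

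Before testa rupture more subunits rose than fell in the micropylar endosperm. Between 1 h and 7 h with the testa intact, 21 of 40 rose and 3 fell, with a median of 0.38, against 16.7% of all probe sets called higher and 21.5% called lower and a median of -0.07 over all probe sets. The rises held 5 of 10 core alpha, 6 of 9 core beta, 4 of 7 RPT and 6 of 10 lid genes. None of the 3 base RPN genes rose. Of the markers of other tissues, 1 of 6 root markers fell, 2 of 6 shoot markers rose, and 1 of 3 seed coat markers rose while 1 fell. Their part in the subunit values was not tested.

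The core beta gene PBC2 (AT1G77440) had 6.04, 6.44, 6.29 and 6.69 in micropylar endosperm at 7 h, against 4.93, 4.83, 4.93 and 4.88 at 1 h, a change of 1.47 ± 0.18 (SE, adjusted p = 9.17e-11) or 2.78-fold. PBG1 had 6.28, 6.19, 6.08 and 5.99 at 7 h, against 4.62, 5.15, 5.07 and 4.48 at 1 h, a change of 1.30 ± 0.19 (SE, adjusted p = 2.45e-08). RPN3a had 7.27, 7.19, 7.71 and 7.50 at 7 h, against 6.19, 6.20, 6.18 and 5.94 at 1 h, a change of 1.29 ± 0.19 (SE, adjusted p = 2.49e-08). For these genes every 7 h array was above every 1 h array. RPN9a rose by 1.18 ± 0.22 and the lid subunit RPN6 by 0.82 ± 0.13 (log2 change ± SE). The base scaffold RPN2b went the other way, with 6.74, 6.37, 6.45 and 6.59 at 7 h, against 7.57, 7.69, 7.38 and 7.08 at 1 h, a change of -0.90 ± 0.22 (SE, adjusted p = 6.22e-04). RPN5a (-0.53) and RPT5a (-0.47) also fell, and none of the 3 overlapped between the groups.

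The path between these times was not even. From 1 h to 3 h, 3 subunits rose and 12 fell in micropylar endosperm, against 14.8% of all probe sets called higher and 17.6% called lower. RPT3 had 9.96, 10.04, 10.03 and 9.72 at 3 h, against 9.10, 9.02, 9.10 and 9.0 at 1 h, a change of 0.88 ± 0.14 (SE, adjusted p = 1.14e-07), with all 3 h arrays above the 1 h arrays. RPN2b had 6.04, 6.03, 6.18 and 6.23 at 3 h, against 7.57, 7.69, 7.38 and 7.08 at 1 h, a change of -1.31 ± 0.22 (SE, adjusted p = 9.4e-07) and the widest fall of any subunit in this step. PBC2 (0.69) and RPN3a (0.57) also rose, and PAE2 (-0.81), RPN5a (-0.71) and RPN3b (-0.67) also fell. The RPN3a call was lost without micropylar endosperm 1 h replicate 4 or micropylar endosperm 3 h replicate 3. From 3 h to 5 h, 8 rose and 0 fell, against 3.01% of all probe sets called higher and 3.54% called lower, led by RPN9a (0.74) and PBG1 (0.60). That count was 0 to 7 when 1 array was left out, and 0 without micropylar endosperm 5 h replicate 2, so neither named call held in every such fit. From 5 h to 7 h, 10 rose and 0 fell, against 3.67% of all probe sets called higher and 4.21% called lower, led by RPN9a (0.71), the core alpha gene PAG1 (0.65) and RPN6 (0.62). That count was 5 to 8 when 1 array was left out, and 5 without micropylar endosperm 5 h replicate 1. The RPN9a call was lost without micropylar endosperm 5 h replicates 1 or 4 or micropylar endosperm 7 h intact replicates 1, 3 or 4, and the PAG1 call without micropylar endosperm 5 h replicates 1, 2 or 4 or micropylar endosperm 7 h intact replicates 2, 3 or 4.

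In the radicle over the same hours, 14 subunits rose and 6 fell, with a median of 0.22, against 16.6% of all probe sets called higher and 23.0% called lower. PBG1 had 5.75, 6.14, 6.62 and 6.15 at 7 h, against 4.82, 4.74, 4.35 and 4.62 at 1 h, a change of 1.53 ± 0.19 (SE, adjusted p = 2.24e-10). PBC2 had 6.72, 6.58, 6.45 and 6.49 at 7 h, against 4.85, 5.21, 4.99 and 5.19 at 1 h, a change of 1.50 ± 0.18 (SE, adjusted p = 6.76e-11). Neither gene's groups overlapped. PBC1, the paralogue of PBC2, rose by 0.96 and RPT4a by 0.82. All 3 base RPN genes fell. RPN2b had 5.99, 5.77, 5.56 and 6.47 at 7 h, against 7.44, 7.66, 7.38 and 7.05 at 1 h, a change of -1.44 ± 0.22 (SE, adjusted p = 1.02e-07). Its paralogue RPN2a (AT2G32730) had 4.96, 4.69, 4.96 and 5.29 at 7 h, against 6.15, 5.73, 5.75 and 6.04 at 1 h, a change of -0.94 ± 0.15 (SE, adjusted p = 3.22e-07). Every 7 h array of both was below every 1 h array. RPN5a fell by 0.69 and RPT5a by 0.42.

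In the radicle 4 subunits rose and 4 fell from 1 h to 3 h, against 9.93% of all probe sets called higher and 12.9% called lower. The rises were PBC2 (0.73), PAD1 (0.69), PBC1 (0.66) and PAG1 (0.64), and the falls included RPN2b (-1.0), RPN2a (-0.87) and RPN5a (-0.44). The PAD1 call was lost without radicle 3 h replicate 3, and the PAG1 call without radicle 1 h replicates 3 or 4 or radicle 3 h replicate 1. From 3 h to 5 h, 0 rose and 0 fell by limma, against 3.56% of all probe sets called higher and 2.88% called lower. At an unadjusted p under 0.05, 3 were higher and 3 lower, and 2 were called when arrays were weighted. From 5 h to 7 h, 1 rose and 0 fell, against 1.23% of all probe sets called higher and 1.30% called lower. PBG1 was the gene called, with 0.69 ± 0.19 (SE, adjusted p = 0.0283), its groups overlapped, and the count was 0 without radicle 5 h replicate 1.

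The change before testa rupture was compared between the tissues directly. The difference, micropylar endosperm minus radicle, passed the test for 2 subunits and was positive in both, against 3.63% of all probe sets called higher and 4.00% called lower. RPN6 (AT1G29150) had 5.05, 4.98, 4.93 and 5.40 at 7 h in micropylar endosperm, against 4.01, 4.23, 4.26 and 4.55 at 1 h. In radicle it had 4.29, 4.09, 4.24 and 4.56 at 7 h, against 4.21, 4.13, 4.33 and 4.19 at 1 h. The groups overlapped in the radicle and not in the micropylar endosperm, and the difference in change was 0.74 ± 0.18 (SE, adjusted p = 0.00438). For RPN2a the difference was 0.69 ± 0.22 (SE, adjusted p = 0.0319), and that call was lost without micropylar endosperm 1 h replicates 3 or 4, micropylar endosperm 7 h intact replicate 2, radicle 1 h replicates 1 or 4 or radicle 7 h intact replicates 2 or 3, with adjusted p up to 0.104.

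The comparison of ruptured with intact testa at the same age gave few calls. At 7 h, 0 subunits were higher and 4 lower in micropylar endosperm with ruptured testa, against 3.64% of all probe sets called higher and 2.69% called lower, and the median over all 40 was -0.22. The change was negative in 33 of the 40, 13 were lower and 0 higher at an unadjusted p under 0.05, and 12 were called when arrays were weighted. RPT3 had 8.96, 8.53, 9.22 and 8.57 with ruptured testa, against 9.27, 9.76, 9.83 and 9.86 with intact testa, a change of -0.86 ± 0.14 (SE, adjusted p = 2.73e-06). Every ruptured array was below every intact one. PBB2 (-0.43), RPN12a (-0.43) and RPT2b (-0.42) were also lower. The PBB2 call was lost without micropylar endosperm 7 h intact replicates 1, 2, 3 or 4 or micropylar endosperm 7 h ruptured replicates 2 or 4, the RPN12a call without micropylar endosperm 7 h intact replicates 2 or 3 or micropylar endosperm 7 h ruptured replicates 2 or 4 and the RPT2b call without micropylar endosperm 7 h intact replicate 3 or micropylar endosperm 7 h ruptured replicates 2 or 4. The count was 1 without micropylar endosperm 7 h intact replicate 3. In this comparison 1 of 3 seed coat and 1 of 6 root markers were higher with ruptured testa, and their part in the subunit values was not tested. In radicle 0 were higher and 0 lower by limma, against 0.633% of all probe sets called higher and 1.07% called lower, with 1 higher and 1 lower at an unadjusted p under 0.05 and 1 called when arrays were weighted.

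Between the ruptures, from 7 h with ruptured testa to 16 h with intact endosperm, 1 subunit rose and 3 fell in micropylar endosperm, against 8.32% of all probe sets called higher and 7.60% called lower. RPT5b rose by 0.63, and PBC2 (-0.73), RPN6 (-0.49) and RPN8a (-0.42) fell. The RPT5b call was lost without micropylar endosperm 16 h intact replicate 3 or micropylar endosperm 7 h ruptured replicate 1 and the RPN8a call without micropylar endosperm 16 h intact replicate 3. The count was 2 without that 16 h replicate. In radicle 1 rose, RPT5a by 0.38, and 3 fell, against 6.84% of all probe sets called higher and 5.02% called lower. The falls were RPT2a (AT4G29040), RPT3 (-0.70) and the core alpha gene PAE1 (-0.66). The count was 2 without radicle 16 h intact replicate 2.

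RPT2a, an ATPase whose loss in Arabidopsis alters meristem and organ size, fell in the radicle in both late intervals. It had 6.78, 6.94, 7.36 and 6.90 at 16 h with intact endosperm, against 7.67, 8.14, 7.56 and 8.16 at 7 h with ruptured testa, a change of -0.89 ± 0.17 (SE, adjusted p = 4.85e-05). At 16 h it had 6.23, 6.58, 6.14 and 6.46 with ruptured endosperm, against 6.78, 6.94, 7.36 and 6.90 with intact endosperm, a change of -0.64 ± 0.17 (SE, adjusted p = 0.00832). The groups did not overlap in either comparison. The endosperm rupture call was lost without radicle 16 h intact replicate 3 (adjusted p = 0.0871). Between the ruptures its change was -0.13 in micropylar endosperm and -0.89 in radicle, a difference of 0.76 ± 0.24 (SE, adjusted p = 0.0347). It was the 1 subunit called for that difference, with 1 higher and 0 lower, against 3.25% of all probe sets called higher and 4.11% called lower. That call was lost without micropylar endosperm 16 h intact replicates 2 or 3, micropylar endosperm 7 h ruptured replicates 1, 2 or 4, radicle 16 h intact replicates 1, 2 or 4 or radicle 7 h ruptured replicates 2 or 4.

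At endosperm rupture itself, 0 subunits rose and 0 fell in micropylar endosperm by limma, against 3.34% of all probe sets called higher and 0.964% called lower, with changes between -0.35 and 0.28 and 0 subunits at an unadjusted p under 0.05. In radicle 0 rose and 2 fell, against 3.57% of all probe sets called higher and 1.87% called lower, namely RPT2a and RPN5a (-0.35 ± 0.10, log2 change ± SE). The RPN5a call was lost without radicle 16 h intact replicate 2 or radicle 16 h ruptured replicates 1 or 3.

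**Figure D4:**
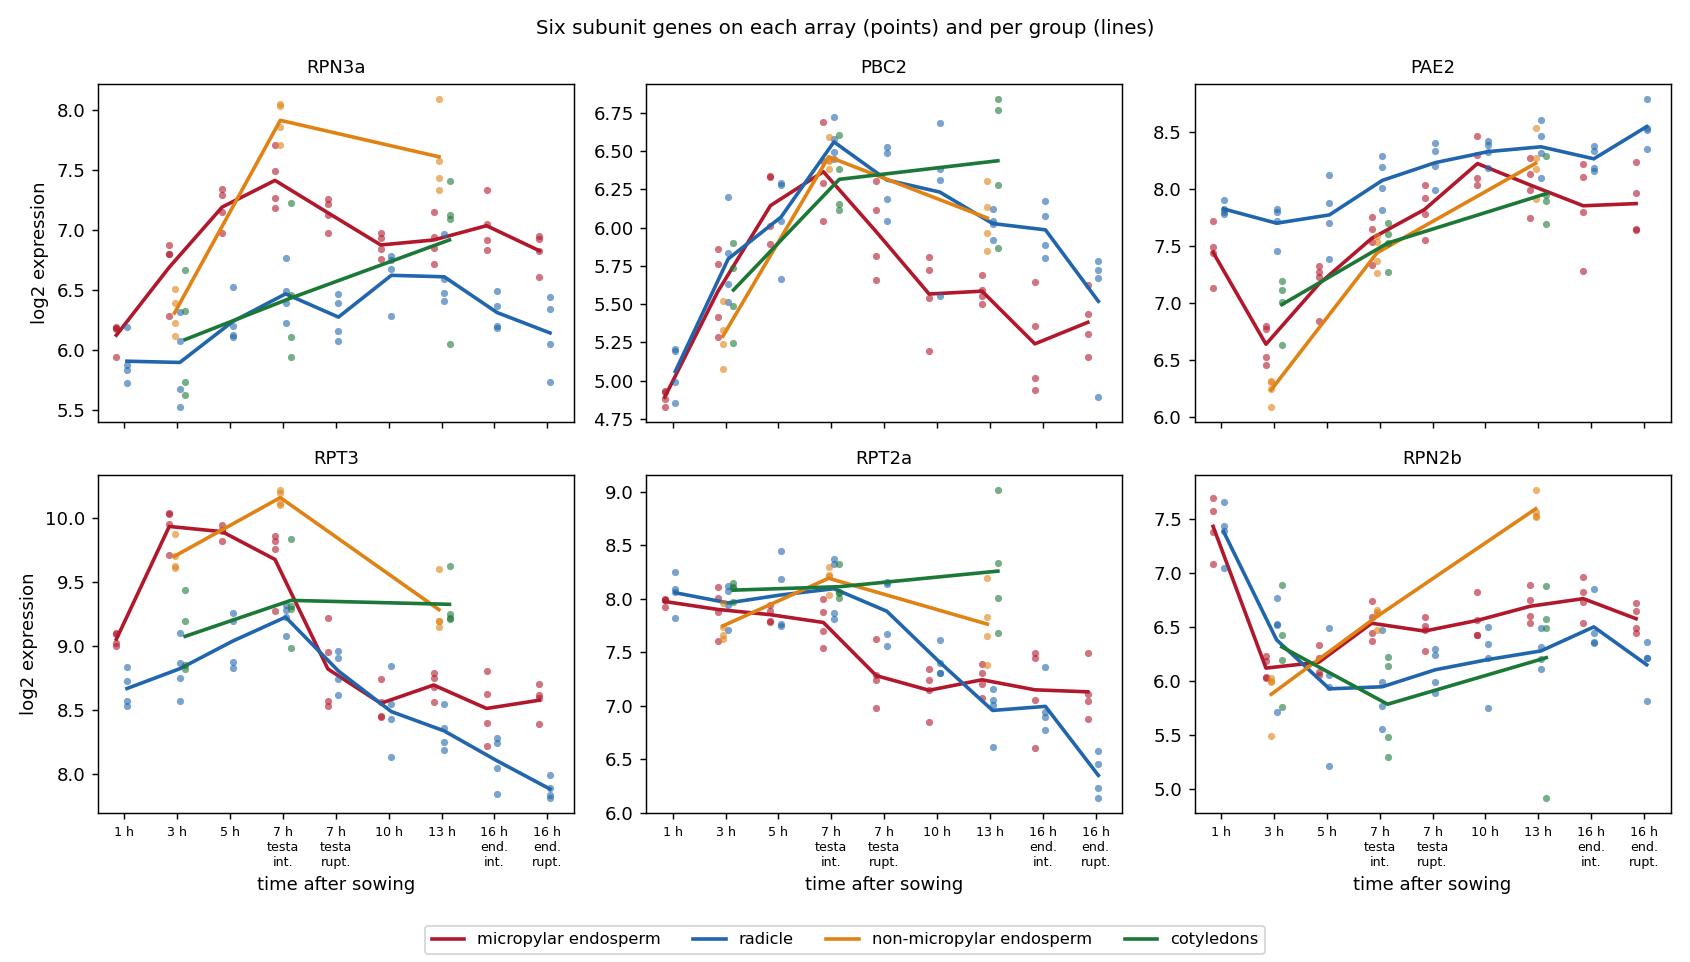
Log2 expression of 6 subunit genes on each array (points) by time after sowing, with lines through the group means of the 4 tissues. RPN3a and PBC2 rise before testa rupture, PAE2 rises in non-micropylar endosperm in both intervals, RPT3 and RPT2a are lowest in the 16 h radicle with ruptured endosperm, and RPN2b is high at 1 h and in the 13 h non-micropylar endosperm.

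Averaged over the 9 shared stages, subunits were called in both directions between micropylar endosperm and radicle. In micropylar endosperm 16 subunits were higher and 13 lower than in radicle, against 28.5% of all probe sets called higher and 37.2% called lower. Of the core genes, 1 of 10 alpha and 2 of 9 beta were higher, while 6 alpha and 4 beta were lower. Of the regulatory particle, all 3 base RPN, 7 of 10 lid and 3 of 7 RPT genes were higher, with 1 lid and 2 RPT genes lower. The difference between core and regulatory genes was not tested.

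The base scaffold RPN1a (AT2G20580), which also binds ubiquitin-like proteins, had a lowest, median and highest value of 7.82, 8.51 and 9.16 over the 36 micropylar arrays, against 7.03, 7.80 and 8.95 over the 36 radicle arrays. Its mean difference was 0.66 ± 0.08 (SE, adjusted p = 4.84e-11). RPN3a had 5.94, 6.94 and 7.71 in micropylar endosperm, against 5.53, 6.30 and 6.97 in radicle, with a difference of 0.64 ± 0.06 (SE, adjusted p = 3.52e-15). The ranges overlapped for both. RPT3 (0.48) and RPT4a (0.37) were also higher, and PAE2 (-0.50), PAD1 (-0.42), PAE1 (-0.40) and PBD1 (-0.32) were lower in micropylar endosperm. At 1 h alone, 2 subunits were higher and 0 lower in micropylar endosperm than in radicle (PBA1 by 0.60 and RPT3 by 0.39), against 6.07% of all probe sets called higher and 6.32% called lower, a count of 0 to 4 when 1 array was left out. Both calls were lost without micropylar endosperm replicate 3 or radicle replicates 1 or 4. At 16 h with ruptured endosperm, 4 were higher (RPT2a by 0.78, RPT3 by 0.70) and 5 lower (RPT5b, -0.81, and PAE2, -0.68), against 17.5% of all probe sets called higher and 18.6% called lower. After a further quantile normalization the split was 8 higher and 5 lower.

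The other tissue pairs were compared over 3, 7 and 13 h. In non-micropylar endosperm 16 subunits were higher and 2 lower than in cotyledons, against 21.0% of all probe sets called higher and 23.7% called lower. RPN1a (0.93 ± 0.14) and RPN3a (0.80 ± 0.11) again led, followed by PBF1 (0.59) and PBA1 (0.59), all as log2 differences. Without replicate 2 of every group, which leaves out the 13 h cotyledon array that stood apart, RPN1a differed by 0.80 (adjusted p = 1.59e-05) and RPN3a by 0.66 (adjusted p = 3.23e-06). PAE1 (-0.36) and RPT2a (-0.25) were lower. The PAE1 call was lost without replicate 2 of each group, and the RPT2a call without replicate 2 or replicate 4. Between the endosperm regions the order of the means over the 40 subunits changed with stage. The mean was 6.51 in micropylar and 6.38 in non-micropylar endosperm at 3 h, 7.04 and 7.11 at 7 h with intact testa, and 6.82 and 7.24 at 13 h. Averaged over these stages the differences were small. In micropylar endosperm 0 subunits were higher and 6 lower than in non-micropylar endosperm, against 6.46% of all probe sets called higher and 7.18% called lower. All 6 lay between -0.28 (RPT3) and -0.17 (RPN8a). That count was 2 to 4 when 1 replicate number was left out of every group, with the lowest value without replicate 1, where the RPT3 call was also lost, and 12 when arrays were weighted. In micropylar endosperm 2 of 6 root markers (PIN2 by 0.64 and SMB by 0.47) and 1 of 3 seed coat markers (MUM4 by 0.67) were also higher than in non-micropylar endosperm, and their part in the subunit differences was not tested. Between the embryo parts, 5 were higher in radicle, led by PAE2 (0.56), and 4 were lower, led by RPT2a (-0.48) and RPT3 (-0.46), against 18.4% of all probe sets called higher and 18.4% called lower.

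In dry seed, 1 subunit was higher and 0 lower in the radicle end than in the cotyledon end, against 4.05% of all probe sets called higher and 5.59% called lower. PAE2 had 7.94, 8.06, 7.87 and 7.70 in the radicle end, against 7.41, 7.14 and 7.60 in the cotyledon end, a difference of 0.51 ± 0.16 (SE, adjusted p = 0.0291) with no overlap. That call was lost without dry cotyledon end replicates 1 or 3 or dry radicle end replicates 1 or 2. Against the dry radicle end, which still held both tissues, 0 subunits were higher and 2 lower in micropylar endosperm at 1 h (PAE1, -0.61, and PAE2, -0.45), against 4.27% of all probe sets called higher and 3.91% called lower, a count of 0 to 2 when 1 array was left out, with 0 without micropylar endosperm 1 h replicate 4. In radicle at 1 h, 0 were higher and 0 lower by limma, against 1.51% of all probe sets called higher and 1.42% called lower, with 0 higher and 1 lower at an unadjusted p under 0.05. A difference from dry seed here mixes time and tissue.

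The catalytic and ubiquitin-handling subunits were followed whatever their result. The caspase-like subunit PBA1 (AT4G31300) had 8.05, 8.77, 8.26 and 7.77 in non-micropylar endosperm at 13 h, against 7.63, 7.60, 7.75 and 7.74 at 3 h, a change of 0.53 ± 0.19 (SE, adjusted p = 0.0157). All 13 h arrays lay above the 3 h arrays, but the call was lost without non-micropylar endosperm 13 h replicate 2 (adjusted p = 0.163). Before testa rupture PBA1 changed by 0.09 ± 0.19 (SE, adjusted p = 0.758) in micropylar endosperm, not past the threshold. It was higher in micropylar endosperm than in radicle over the 9 stages, by 0.35 ± 0.06 (SE, adjusted p = 5.83e-07). The trypsin-like subunits PBB1 (AT3G27430) and PBB2 (AT5G40580) rose in non-micropylar endosperm by 0.82 ± 0.15 and 0.79 ± 0.13 (SE) from 3 h to 13 h. Before testa rupture in micropylar endosperm, PBB1 rose by 0.60 ± 0.15 (SE, adjusted p = 6.96e-04), while PBB2 changed by 0.28 ± 0.13 (SE, adjusted p = 0.0848).

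The deubiquitinase RPN11 (AT5G23540) was among the subunits that varied least, with group means between 9.02 in radicle at 16 h with ruptured endosperm and 9.67 in the dry cotyledon end. It rose by 0.44 ± 0.10 (SE, adjusted p = 2.13e-04) in non-micropylar endosperm from 3 h to 13 h. The ubiquitin receptor RPN10, whose loss in Arabidopsis increases abscisic acid sensitivity, passed the limma test in 0 of the 34 comparisons, and its group means lay between 5.36 and 5.85. Its change was -0.12 ± 0.17 (SE, adjusted p = 0.616) in non-micropylar endosperm from 3 h to 13 h and 0.05 ± 0.17 (SE, adjusted p = 0.83) in micropylar endosperm before testa rupture. The non-micropylar fall rests on the high replicate 4 at 3 h. RPN10 had 5.34, 5.39, 5.42 and 6.58 at 3 h there, against 5.63, 5.55, 5.46 and 5.62 at 13 h. With replicate 4 set aside, every 13 h array lay above every 3 h array. Its non-micropylar change from 3 h to 7 h gained a call in 1 of 15 refits. The lid subunit RPN12a (AT1G64520), linked to cytokinin responses in Arabidopsis, rose by 1.13 ± 0.13 (SE, adjusted p = 6.15e-12) in non-micropylar endosperm and by 0.45 ± 0.13 (SE, adjusted p = 0.00424) in micropylar endosperm before testa rupture.

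Most subunits correlated with the mean of the others across the groups. Over the 27 group means, the Pearson correlation of a subunit with the mean of the others had a median of 0.66, and 26 of the 40 lay above 0.5, a value reached against the mean of all subunits by 5.93% of the other 13855 probe sets, whose median was -0.08. The groups share tissues and a time course, so they are not independent, and no p is given. The highest values were 0.85 for RPN9a, 0.85 for RPN6 and 0.85 for PBD2 (AT4G14800). The lowest were -0.25 for RPT5b (AT1G09100), -0.16 for RPT2a and 0.03 for RPT3, all ATPases. The class as a whole was not low, since the other ATPases had 0.20 (RPT5a), 0.21 (RPT2b), 0.78 (RPT4b) and 0.82 (RPT4a). The lid gene RPN5a, at 0.04, was close to RPT3.

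In radicle the group means of RPT3 and RPT2a were highest at 7 h with intact testa and lowest at 16 h with ruptured endosperm. RPT3 averaged 9.23 ± 0.11, 8.81 ± 0.16, 8.49 ± 0.29, 8.34 ± 0.16, 8.10 ± 0.20 and 7.88 ± 0.08 at 7 h with intact and with ruptured testa, 10 h, 13 h and 16 h with intact and with ruptured endosperm (SD, n = 4 each), lower at each later stage. RPT2a averaged 8.09 ± 0.29, 7.88 ± 0.31, 7.41 ± 0.15, 6.96 ± 0.24, 7.00 ± 0.25 and 6.35 ± 0.20 at the same stages, with no step down between 13 h and 16 h with intact endosperm. In cotyledons RPT2a averaged 8.08 ± 0.08, 8.11 ± 0.14 and 8.26 ± 0.57 at 3, 7 and 13 h, and its change from 3 h to 13 h was 0.18 ± 0.17 (SE, adjusted p = 0.505), or -0.07 without the array that stood apart. RPT5b had its highest group mean, 5.33 ± 0.39, in radicle at 16 h with ruptured endosperm and its lowest, 3.97 ± 0.12, in non-micropylar endosperm at 7 h.

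The genes of a paralogue pair were compared by how the difference between them changed. Of 19 pairs, 13 had both genes measured, and in 7 the difference between first and second gene was not the same in micropylar endosperm and radicle (two-sided permutation test within stages, Benjamini-Hochberg adjusted over the 13 pairs). The core alpha gene PAD1 was lower in micropylar endosperm than in radicle by 0.42 on the log2 scale, while PAD2 (AT5G66140) was higher by 0.22. That made a difference of -0.64, with the same sign at all 9 stages (permutation p = 1e-05, the smallest that 100000 resamples give here, adjusted p = 6.5e-05). RPN3a was higher by 0.64, against 0.02 for RPN3b (AT1G75990), a difference of 0.61, also at all 9 stages (permutation p = 1e-05, adjusted p = 6.5e-05). The differences were 0.29 for RPT5a over RPT5b, -0.27 for RPN5a over RPN5b, -0.19 for PBD1 over PBD2, 0.17 for RPT4a over RPT4b and 0.14 for PAF1 over PAF2. RPN5b was dim, and of its pair's value RPN5a gave a tissue difference of -0.14 and RPN5b one of 0.13.

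**Figure D5:**
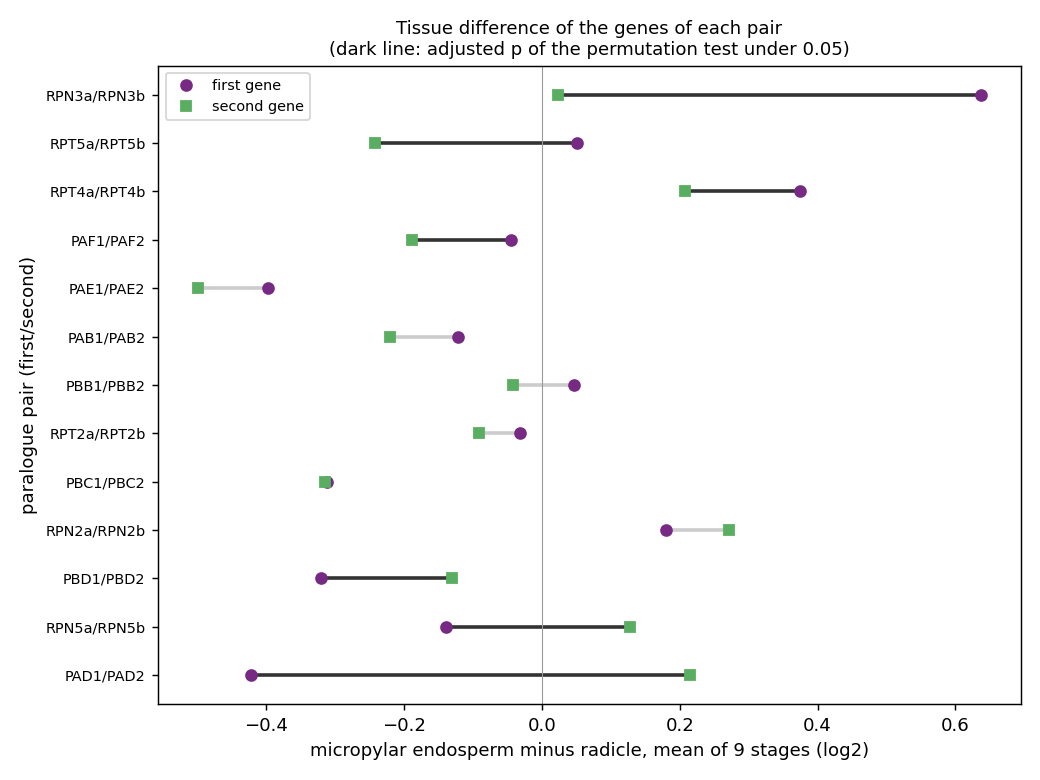
Micropylar endosperm minus radicle, as the mean over 9 stages in log2 units, for the first (circle) and second (square) gene of the 13 measured paralogue pairs, ordered by the difference between them. The pairs PAD1/PAD2 and RPN3a/RPN3b have the longest lines, with differences of -0.64 and 0.61.

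Before testa rupture, the change of first minus second gene was tested within each tissue. With 4 arrays against 4, the exact permutation test cannot give a two-sided p below 0.0286, and none of the 26 tests passed after adjustment (smallest adjusted p = 0.0743). With that floor, a pair can pass adjustment over 26 tests only if many tests reach the floor together. The lack of calls therefore cannot show that any pair kept its difference. The largest value was RPN3a over RPN3b, 1.31 in micropylar endosperm and 0.86 in radicle (exact permutation p = 0.0286 in each). The floor was also reached in both tissues by RPT4a over RPT4b (0.50 and 0.53) and by RPN5a over the dim RPN5b (-0.80 and -0.65). In micropylar endosperm alone it was reached by the PBB, PBC, RPT2 and RPN2 pairs.

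The genes that act around the proteasome did not all move with it. In non-micropylar endosperm from 3 h to 7 h, 6 of 7 ubiquitin proteases, 5 of 8 genes for the CDC48 unfoldase and ubiquitin shuttles and 5 of 9 genes of the COP9 signalosome, a complex related to the lid, rose, and none of these lists had a gene that fell. UCH2 rose by 1.41, UBP12 by 1.27 and UBP14, which takes apart free ubiquitin chains, by 1.18. CDC48B rose by 1.50, CDC48A by 1.15 and CSN6A by 1.16. From 7 h to 13 h, 4 ubiquitin proteases, 1 of the CDC48 and shuttle genes and 4 COP9 genes fell and none rose. Background shares for these intervals are those given above.

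The ubiquitin genes themselves differed from the subunits. From 3 h to 13 h in non-micropylar endosperm, 0 of 7 ubiquitin and E1 genes rose and 6 fell, with a median of -1.83. UBQ3 changed by -2.13 ± 0.24, UBQ11 by -2.05 ± 0.17 and UBQ14 by -2.02 ± 0.21 (log2 change ± SE). These polyubiquitin genes are near-identical repeats, so their probe sets may read the same transcripts. Their fall came after 7 h. For UBQ3, UBQ11 and UBQ14 the 3 h and 7 h arrays overlapped, and every 13 h array lay below every 7 h array. The E1 gene UBA1 had 6.69, 6.47, 6.60 and 6.74 at 7 h, against 5.55, 5.87, 5.54 and 5.54 at 3 h. Before testa rupture, 5 of 7 rose and 1 fell in micropylar endosperm, and 4 rose and 1 fell in radicle. At testa rupture 6 of 7 were lower in micropylar endosperm with ruptured testa, with a median of -0.75. Of 10 E2 conjugating enzymes, 6 fell in micropylar endosperm and 5 in radicle before testa rupture, and 5 fell in non-micropylar endosperm from 3 h to 13 h. UBC8 changed by -1.49 in micropylar endosperm before testa rupture and UBC11 by -1.94 in non-micropylar endosperm from 3 h to 13 h. Of 11 core genes of cullin-RING ligases, 5 rose and 1 fell in non-micropylar endosperm from 3 h to 7 h, and 0 rose and 5 fell from 7 h to 13 h. The 3 other subunit genes measured passed the test in none of the non-micropylar intervals.

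Assembly factors and regulators of the proteasome were followed in some of the comparisons. NAC53, a transcription factor that in Arabidopsis activates subunit genes under proteasome stress, changed by -1.48 ± 0.20 (SE, adjusted p = 8.43e-10) in non-micropylar endosperm from 3 h to 13 h, the interval in which 34 subunits rose. It rose before testa rupture by 0.75 ± 0.20 (SE, adjusted p = 0.0013) in micropylar endosperm and by 0.88 ± 0.20 (SE, adjusted p = 1.92e-04) in radicle. Its relative NAC78 changed by -0.53 ± 0.17 (SE, adjusted p = 0.00834) in non-micropylar endosperm from 3 h to 13 h, and in micropylar endosperm before testa rupture by -0.18 ± 0.17 (SE, adjusted p = 0.415). The core assembly chaperone UMP1a rose by 0.36 ± 0.14 (SE, adjusted p = 0.0265) in non-micropylar endosperm and by 0.60 ± 0.14 (SE, adjusted p = 1.91e-04) in radicle before testa rupture. The activator PA200 changed by -1.05 ± 0.35 (SE, adjusted p = 0.0118) in radicle before testa rupture. PTRE1, a regulator of proteasome activity, changed by -0.89 ± 0.17 (SE, adjusted p = 1.3e-05) in non-micropylar endosperm, and UMP1b had no row. ECM29 went the other way in that tissue, with 5.66, 5.45, 5.79 and 5.74 at 13 h, against 4.68, 4.50, 4.91 and 4.49 at 3 h. PA200 had 8.27, 8.58, 8.07 and 8.31 there at 3 h, 8.91, 8.93, 9.04 and 9.09 at 7 h, and 8.31, 8.22, 8.56 and 7.91 at 13 h. Over the 9 stages, NAC53 (0.62), NAC78 (0.72), PA200 (1.19), ECM29 (0.87) and PTRE1 (0.46) were higher and UMP1a (-0.35) lower in micropylar endosperm than in radicle. Across the 27 group means, the listed pathway genes with the highest correlation with the mean of the subunits were UCH2 (0.76), UBP14 (0.72) and CSN6A (0.68), and those with the lowest were UBC1 (-0.60) and UBC28 (-0.59). UCH2 and UBP14 were at or near the dim level in some groups, such as non-micropylar endosperm at 3 h.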

How the data were processed

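Messenger RNA was measured on 107 single-colour arrays. The authors deposited log2 expression values. Per the submitters' processing notes these were made by RMA, run in the affy package, a method that background-corrects, quantile-normalizes and summarises the probes of a set. The array design, probe-set definition and software versions are not given in the sources used here. No column was left out. Precision is limited by the number of arrays, 4 in most groups.

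Group means were fitted over all 107 arrays with limma 3.58.1 in R 4.3.3 (residual degrees of freedom 80, prior 6.04), without a filter, and p-values were adjusted over all 13895 probe sets in each of 34 comparisons. Of these, 7 were added after seeing the data: the steps 3 h to 7 h and 7 h to 13 h in non-micropylar endosperm and cotyledons, 3 h to 13 h in micropylar endosperm, and the differences of the non-micropylar change from the cotyledon and the micropylar change. In data simulated for the 7 h against 1 h micropylar comparison, 67, 67 and 66 of 13895 genes were changed by 0.3, 0.6 and 1 log2 units. Of these 7.46%, 46.3% and 92.4% were called, with 7 false calls. The real comparison called 2321 probe sets higher and 2992 lower, so its adjusted threshold was less strict and these rates do not carry over to it. There, no subunit change above 0.28 was left uncalled. A change of -0.46 was not called, so changes can still be missed. Paralogue pairs were compared by permuting the tissue labels within stages (100000 resamples) or by exact permutation of 4 against 4 arrays.

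The subunits, gene lists and comparisons were chosen with earlier results of these data known. Named in a comparison are up to 4 called subunits with the largest rise and up to 4 with the largest fall whose arrays do not overlap, the catalytic subunits, RPN10, RPN11, RPN12a and RPT2a, the pairs past their test, the 3 highest and 3 lowest correlations and up to 3 genes per pathway list. PAE1, PBG1, RPT5a and RPN8a are also named where few subunits were called, chosen after their values were seen. Gene symbols and roles come from a list of Arabidopsis loci. The fits were repeated with robust moderation and an intensity trend, without dim probe sets, with arrays centred on the brighter probe sets, after a further quantile normalization, with array weights, with a replicate block, on only the arrays compared and without each replicate in turn.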

Additional observations from a re-analysis of the deposited data

Results flagged for a closer look

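Of 78 groups of 4 arrays examined, 26 were for the mean over the subunits and the rest for subunits whose values are printed. Among the 78, 6 held an array whose gap to the nearest other array took up most of the group's range. Chance gives about 1 in 20, and all 6 were groups of single subunits. RPN10 in non-micropylar endosperm at 3 h was not among the groups examined. PBG1 was 7.20 on the 13 h cotyledon replicate 2, the array that stood apart, with the others between 5.89 and 6.08, and 4.82 on the 3 h cotyledon replicate 1, with the others between 4.96 and 4.98. RPN3a was 5.94 on the 1 h micropylar replicate 4, with the others between 6.18 and 6.20. RPN2b was 6.47 on the 7 h non-micropylar replicate 4, with the others between 6.62 and 6.66, and 5.49 on the 3 h replicate 3 of the same tissue, with the others between 5.99 and 6.03. RPT3 was 9.60 on the 13 h non-micropylar replicate 3, with the others between 9.15 and 9.20.

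Changes that differed between tissues, by the test of the difference in limma, were these among the subunits that the naming rule selects. Before testa rupture the change in micropylar endosperm exceeded that in radicle by 0.74 for RPN6 and 0.69 for RPN2a. Between the ruptures it did so by 0.76 for RPT2a. Leaving out 1 array ended the RPT2a call for micropylar endosperm 16 h intact replicates 2 or 3, micropylar endosperm 7 h ruptured replicates 1, 2 or 4, radicle 16 h intact replicates 1, 2 or 4 or radicle 7 h ruptured replicates 2 or 4, and the RPN2a call for micropylar endosperm 1 h replicates 3 or 4, micropylar endosperm 7 h intact replicate 2, radicle 1 h replicates 1 or 4 or radicle 7 h intact replicates 2 or 3. From 3 h to 13 h, 15 subunits passed against the cotyledons and 15 against the micropylar endosperm, of which 8 each are named. The change in non-micropylar endosperm minus that in cotyledons was 1.82 for RPN2b, 1.01 for PAE2, 0.97 for PAB2, 0.96 for PBF1, 0.65 for RPN12a, 0.62 for PBD2, 0.43 for RPN11 and -0.67 for RPT3. Leaving out 1 array ended the RPN11 call for cotyledon 13 h replicates 2 or 4, cotyledon 3 h replicates 2 or 3, non-micropylar endosperm 13 h replicate 3 or non-micropylar endosperm 3 h replicate 1, among them the array that stood apart (0.35 and adjusted p = 0.105 without cotyledon 13 h replicate 2). It ended the PBD2 call for cotyledon 13 h replicate 4, cotyledon 3 h replicate 3, non-micropylar endosperm 13 h replicate 3 or non-micropylar endosperm 3 h replicate 1, and the RPN12a call for cotyledon 3 h replicate 3. The RPN11 call was also lost with array weights, and the RPN11, RPN12a and RPT3 calls when only the arrays compared were fitted. Over the same hours, the change in non-micropylar minus that in micropylar endosperm was 1.14 for RPN2b, 1.13 for PBC1, 1.07 for RPN3a, 0.89 for RPN2a, 0.82 for RPT3, 0.81 for PBA1, 0.72 for RPN6 and 0.64 for RPN12a. Leaving out 1 array ended the RPN12a call for micropylar endosperm 3 h replicate 3, and the PBA1 call for micropylar endosperm 13 h replicates 1 or 2, micropylar endosperm 3 h replicates 1, 2 or 3, non-micropylar endosperm 13 h replicates 2 or 3 or non-micropylar endosperm 3 h replicates 1 or 2. RPT3 fell in both endosperm regions, by 0.42 in non-micropylar and 1.24 in micropylar endosperm on the log2 scale.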

How the results depend on the processing

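For the named subunits, 7454 refits kept the same side of the threshold, 222 lost a call and 93 gained one. No called change turned direction, but 241 refits gave the opposite sign for changes that passed in neither fit, such as RPT2a and RPT5b in cotyledons from 3 h to 13 h. With array weights the counts of called subunits were 14 for micropylar endosperm from 3 h to 5 h and 18 from 5 h to 7 h, 2 for radicle from 3 h to 5 h, 12 and 1 for testa rupture in micropylar endosperm and radicle, 8 for micropylar endosperm between the ruptures, 5 for radicle at endosperm rupture, 12 for micropylar against non-micropylar endosperm, 0 between the dry seed ends, 1 for micropylar endosperm against dry seed, 4 for the tissue difference before testa rupture, 1 for the tissues at 1 h and 24 for non-micropylar endosperm from 7 h to 13 h. With only the arrays compared they were 4 and 18 for the same 2 micropylar steps, 0 for radicle from 5 h to 7 h, 2 for micropylar testa rupture, 2 for radicle between the ruptures, 0 for radicle at endosperm rupture, 9, 2 and 1 for cotyledons from 3 h to 13 h, 3 h to 7 h and 7 h to 13 h, 10 for micropylar against non-micropylar endosperm, 0 between the dry seed ends, 0 for micropylar endosperm against dry seed, 0 for the tissue difference between the ruptures and 0 for the tissues at 1 h. A further quantile normalization gave 2 between the dry seed ends, 1 for the tissues at 1 h and 24 for the non-micropylar minus micropylar change. The intensity trend gave 1 for micropylar endosperm against dry seed and 1 for the tissues at 1 h. The causes of these shifts were not tested. With the replicate block, radicle from 5 h to 7 h had 2 called instead of 1, and no other count moved by over 1.5 times. Over 1378 pairs of same-numbered arrays from different groups, the deviations from the group means correlated at 0.0016 on average (-0.54 to 0.58), with 173 over 0.1. That average covers all groups together, so it cannot show whether replicate numbers pair the samples of particular groups, which was not tested. When 1 replicate was left out, counts ranged over 1 to 4 for the tissue difference before testa rupture and 0 to 1 between the ruptures, 8 to 16 for cotyledons from 7 h to 13 h, 0 to 2 between the dry seed ends, 0 to 2 and 0 to 1 for micropylar endosperm and radicle against dry seed, 0 to 4 for the tissues at 1 h, 0 to 7, 5 to 8, 1 to 6 and 2 to 5 for the micropylar steps from 3 h, from 5 h, at testa rupture and between the ruptures, 0 to 1, 0 to 3, 2 to 5 and 1 to 3 for the radicle steps from 3 h, from 5 h, between the ruptures and at endosperm rupture, and 2 to 4 for micropylar against non-micropylar endosperm. They ranged over 32 to 35 and 34 to 35 for non-micropylar endosperm from 3 h to 7 h and 13 h, 20 to 24 and 19 to 20 before testa rupture in micropylar endosperm and radicle, and 16 to 20 for cotyledons from 3 h to 13 h. The paralogue pairs past the tissue test numbered 6 to 8.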
